A study of Mus musculus with 8 samples.

Results

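The genes described here are 9 long non-coding RNA (lncRNA) genes that host small nucleolar RNAs (snoRNAs), namely *Gas5*, *Snhg1*, *Snhg3*, *Snhg5*, *Snhg6*, *Snhg8*, *Snhg11*, *Snhg12* and *Zfas1*. They were chosen by name, through the match of each Ensembl identifier to the GENCODE mouse annotation, from 56691 genes in the deposited table. All 9 passed the filter on low counts that left 22423 genes for testing. The counts came from bulk RNA sequencing of cerebellar tissue from mice aged 6 months, with 1 library per mouse and 4 mice of each genotype. Mice of the strain B6;129S4-Atmtm1Bal/J were either homozygous for the targeted allele (*Atm*-KO, mice 1M, 7F, 11M and 12M) or carried both copies of *Atm* intact (*Atm*-WT, mice 2M, 7M, 13M and 32M). Heterozygous parents were crossed and wild-type littermates served as controls. No treatment is named for these mice, and only *Atm*-KO mouse 7F carries the letter F in its label, where the others carry the letter M. ATM is a kinase that responds to DNA double-strand breaks, and its loss causes ataxia-telangiectasia, in which the cerebellum degenerates.

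A snoRNA host gene is transcribed as a long precursor with snoRNAs in its introns. Splicing frees the introns, from which the snoRNAs are trimmed and packed with proteins, while the joined exons form a spliced RNA that often lives only briefly because nonsense-mediated decay destroys it. C/D box snoRNAs guide ribose methylation and H/ACA box snoRNAs guide pseudouridylation, chiefly of ribosomal RNA. Many hosts belong to the terminal oligopyrimidine (TOP) genes, whose RNA begins with a C followed by pyrimidines, as do the messengers of ribosomal proteins.

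The 9 genes lie on 6 chromosomes of GRCm39, and GENCODE vM39 classes each of them as lncRNA. *Gas5* (ENSMUSG00000053332), first found as a transcript of growth-arrested cells, spans chromosome 1 from 160861793 to 160866118, and *Snhg6* (ENSMUSG00000098234) spans the same chromosome from 9926809 to 10014504. *Snhg11* (ENSMUSG00000044349), which is known as a neuron-enriched RNA in the brain, spans chromosome 2 from 158217558 to 158228071. *Zfas1* (ENSMUSG00000074578), the antisense neighbour of *Znfx1*, lies further along chromosome 2 from 166903619 to 166907799. *Snhg8* (ENSMUSG00000104960) lies on chromosome 3 from 123301192 to 123302578. *Snhg12* (ENSMUSG00000086290) and *Snhg3* (ENSMUSG00000085241) lie 36.6 kb apart on chromosome 4, from 132035905 to 132038762 and from 132075325 to 132080997. *Snhg5* (ENSMUSG00000097195) spans chromosome 9 from 88377321 to 88405615, 35.03 Mb from *Atm*, and *Snhg1* (ENSMUSG00000108414) spans chromosome 19 from 8700319 to 8703812.

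The start of each host is shown because it holds the feature by which TOP genes are recognised. Each sequence runs 5′ to 3′ on the strand of the gene in GRCm39, from 20 bases before to 20 bases after the start used by the largest number of annotated isoforms. In *Snhg11* and *Snhg3* no start was used by more than 1 isoform, so the window there is that of 1 of 7 and 1 of 5 isoforms. Capitals mark the longest run of C and T that begins with C, or the first of them where several share that length, as in *Snhg1* and *Snhg11*.
Gas5, chr1:160862716-160862756 (plus strand): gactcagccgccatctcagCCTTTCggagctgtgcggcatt
Zfas1, chr2:166905122-166905162 (plus strand): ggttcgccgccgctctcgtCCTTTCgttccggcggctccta
Snhg6, chr1:10014323-10014363 (minus strand): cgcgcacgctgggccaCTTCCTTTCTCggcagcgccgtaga
Snhg12, chr4:132035967-132036007 (plus strand): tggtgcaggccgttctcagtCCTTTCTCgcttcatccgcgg
Snhg1, chr19:8700831-8700871 (plus strand): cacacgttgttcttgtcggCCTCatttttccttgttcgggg
Snhg5, chr9:88404924-88404964 (minus strand): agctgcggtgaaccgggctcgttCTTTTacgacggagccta
Snhg8, chr3:123301972-123302012 (minus strand): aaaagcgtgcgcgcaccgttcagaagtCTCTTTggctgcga
Snhg3, chr4:132080954-132080994 (minus strand): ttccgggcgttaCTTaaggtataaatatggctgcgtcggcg
Snhg11, chr2:158217538-158217578 (plus strand): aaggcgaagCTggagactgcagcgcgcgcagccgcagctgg
The start base was a C in 6 of the 9 genes, against 18.2% of 22243 genes tested that had such a window. The median run was 6 bases in the hosts and 4 bases in all genes. *Snhg6* had the longest run, of 11 bases, a length reached by 4.74% of all genes, and *Snhg12* followed with 8 bases, reached by 13.2%. In *Gas5*, *Zfas1*, *Snhg1*, *Snhg6* and *Snhg12* the run in capitals covered the start itself. The longest run in the window of *Snhg11* was 2 bases, and 98.1% of genes had a run at least as long. The letters CTTTC or CTTTT, searched on the transcribed strand and chosen after these windows were seen, occurred in 5 of the 9 windows and in 8.68% of all windows. They occurred in 2 of 12 windows of other lncRNA hosts and in 3 of 29 windows of protein-coding hosts. These matches describe the sequence and do not show that a factor binds there.

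The annotation lists 34 snoRNA genes inside the hosts on the same strand, at 32 places, since *Snord80* in *Gas5* and *Snora16a* in *Snhg12* are each listed under a pair of identifiers that overlap. *Gas5* holds 9 places and *Snhg1* holds 8, and both are known for C/D box snoRNAs, among them *Snord47* in *Gas5* and *Snord22* in *Snhg1*. *Snhg12* holds 4, among them *Snora44* and *Snord99*, *Zfas1* holds 3 with *Snord12*, and *Snhg3*, *Snhg5* and *Snhg11* hold 2 each. *Snhg6* and *Snhg8* hold 1 each, *Snord87* and *Snora24*. Of the 34 snoRNA genes, 31 lie wholly within bases that are exonic in some isoform of their host, and all 31 had 0 counts in every library. The other 3 had counts, namely *Gm25129* in *Snhg11*, *Snora73b* in *Snhg3* and, with 2 to 12 counts per library, *Snora73a* in *Snhg3*. A 0 in this table therefore went with overlap of host exons at every locus, and whether the snoRNA itself was scarce was not tested. The settings that the counting used for overlapping genes are not stated.

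**Figure D1:**
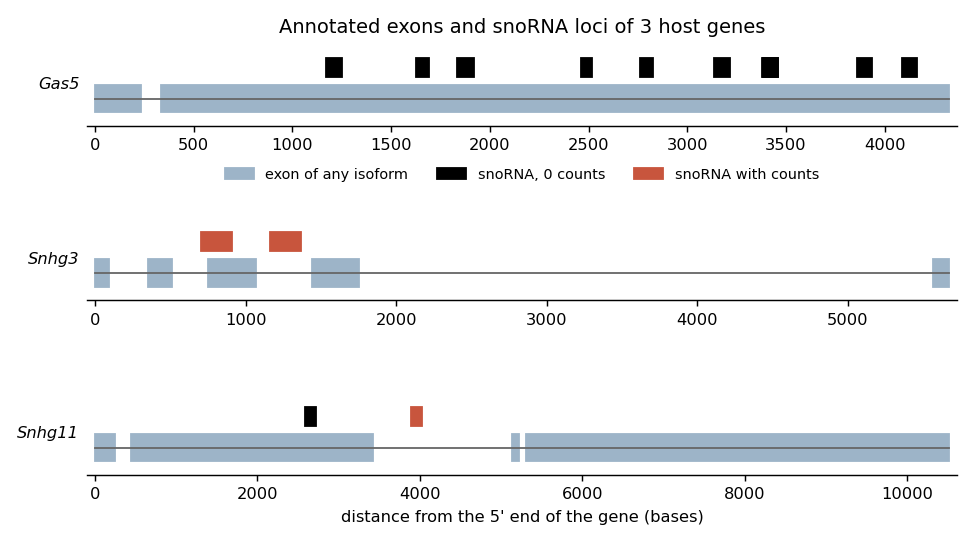
Exons of any annotated isoform (blue boxes) and snoRNA loci (boxes above them) of 3 host genes, against the distance in bases from the 5′ end of each gene. Black snoRNA loci had 0 counts in all 8 libraries and lie over exons, while the loci with counts (red) lie in an intron (*Gm25129* in *Snhg11*, *Snora73b* in *Snhg3*) or overlap an exon in part (*Snora73a*).

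The snoRNAs with an intron of their own are shown because their reads can be told from those of host exons, together with the second locus of *Snhg11*, which had no counts. They run 5′ to 3′ on the host strand of GRCm39, and capitals mark the ACA nearest the 3′ end, the box that gives H/ACA snoRNAs their name.
Gm25129 in Snhg11, chr2:158221454-158221586 (plus strand): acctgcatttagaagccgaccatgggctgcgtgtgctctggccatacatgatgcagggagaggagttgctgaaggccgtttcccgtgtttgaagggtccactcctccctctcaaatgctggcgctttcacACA
Gm25187 in Snhg11, chr2:158220142-158220274 (plus strand): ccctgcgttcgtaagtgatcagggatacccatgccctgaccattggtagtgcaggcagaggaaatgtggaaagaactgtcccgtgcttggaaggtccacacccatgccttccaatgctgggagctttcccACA
Snora73b in Snhg3, chr4:132079633-132079837 (minus strand): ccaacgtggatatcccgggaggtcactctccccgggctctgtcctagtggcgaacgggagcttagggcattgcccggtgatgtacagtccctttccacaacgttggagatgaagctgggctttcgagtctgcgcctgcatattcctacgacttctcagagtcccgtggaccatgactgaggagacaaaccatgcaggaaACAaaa
*Gm25129* and *Gm25187* both measure 133 bases, and 56 positions hold the same base when they are aligned end to end without gaps. Such a count misses likeness where stretches are shifted against each other, and no alignment with gaps is given here.

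Over all libraries, the level of *Snhg11* stood far above that of the other hosts. Per kilobase of annotated exon (the union of all isoforms), *Snhg11* had 45.2 CPM (counts scaled to a common library size) in *Atm*-WT mice, 13.9 times the level of *Gas5*, the next gene, and 70.6 times that of *Snhg6*, the lowest. The order below it was *Gas5* (3.24 CPM per kb), *Snhg3* (2.38), *Snhg8* (2.04), *Zfas1* (1.73), *Snhg1* (1.30), *Snhg12* (1.12), *Snhg5* (0.805) and *Snhg6* (0.640). The ranges of the 4 *Atm*-WT mice were separate between *Snhg11* and *Gas5*, between *Gas5* and *Snhg3*, and between *Snhg12* and *Snhg5*. All other neighbours in the order overlapped in range. *Gas5* has 229 annotated isoforms and *Snhg11* has 7, so that length per gene depends on the annotation. Divided by the spliced length of the canonical isoform in place of the union, the mean of all libraries kept *Snhg11* first and *Gas5* second, 4.63-fold apart, while *Zfas1* moved from the fifth place to the third. In counts, *Snhg11* made up 87.7% to 95.04% of all counts on the 9 genes. It ranked 6 among 3339 lncRNA genes tested by mean CPM.

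The libraries held 76912738 to 88030300 counts in *Atm*-WT mice against 65967130 to 78431478 in the *Atm*-KO group. Values below are CPM scaled by TMM-normalised library sizes, and adjusted p-values come from edgeR's quasi-likelihood test across all genes with Benjamini-Hochberg adjustment. *Atm* itself was at 71.5 ± 10.1 CPM (SD, n = 4) in *Atm*-WT mice against 45.4 ± 4.16 CPM in the *Atm*-KO group, and its log2 fold change was −0.66 (edgeR, adjusted p = 0.0775), with every *Atm*-KO mouse below every *Atm*-WT mouse. The adjusted p of *Atm* was 2.009e-05 in DESeq2 and, in edgeR, 0.0040 with no filter on low counts, 0.0133 with length and GC trends removed, 0.0315 without *Atm*-WT mouse 32M and 0.0498 with 1 surrogate variable. Markers of the cerebellum were high in all mice, with summed levels of 3714 to 4684 CPM for 6 genes of granule cells and 7617 to 9612 CPM for 5 genes of Purkinje cells. In bulk tissue, a lower number of cells of a type and less RNA per cell cannot be told apart.

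The comparison of genotypes asked whether loss of *Atm* went with a change of the host RNAs in the cerebellum. *Snhg11* was higher in every *Atm*-KO mouse than in every *Atm*-WT mouse, while the other 8 hosts overlapped between genotypes. A gene was called where its adjusted p was under 0.05 and its log2 fold change lay beyond 0.5 in either direction. By these thresholds edgeR called 0 of the 9 hosts, against 0.0178% of all genes tested. At an unadjusted p under 0.05, 1 host was higher, against 11.7% of all genes, and 0 were lower, against 8.48%. The genotypes did not overlap in 1 host, which was higher in *Atm*-KO mice, against 6.47% of all genes in that direction and 5.12% in the other. DESeq2 called *Snhg11* by the same thresholds and no other host, against 4.8% of the genes it tested. The methods of the paper name DESeq2, while the legend of its figure with these calls names limma. The fitted log2 fold change was positive in 6 hosts and negative in 3, with a median of 0.13, beside −0.02 for all genes tested and 0.13 for all lncRNA genes tested.

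**Figure D2:**
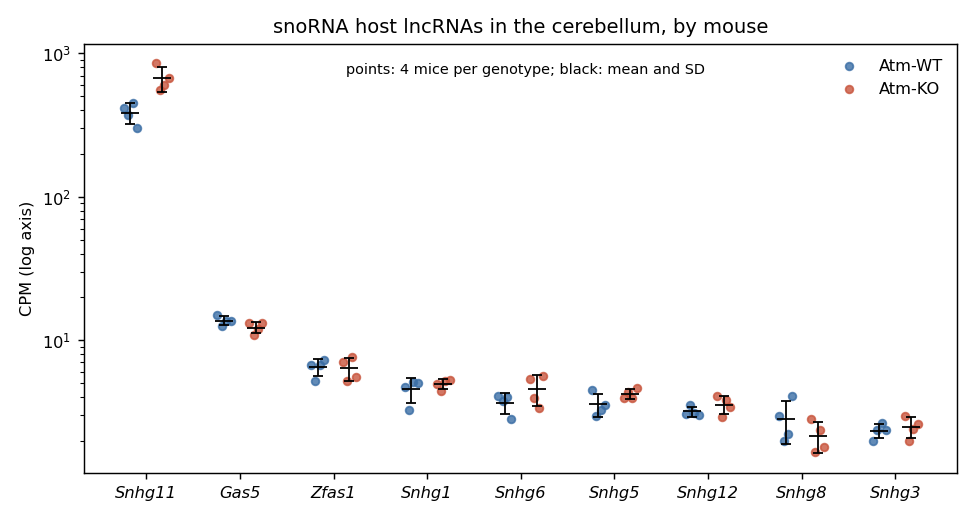
CPM of the 9 host lncRNAs on a log axis, by gene, with a point for each of the 4 *Atm*-WT (blue) and 4 *Atm*-KO (red) mice and the mean with SD in black. *Snhg11* lies between 299.7 and 849.1 CPM with its genotypes apart, and the other genes lie under 15 CPM with genotypes that overlap.

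*Snhg11* was at 418.5, 371.4, 452.3 and 299.7 CPM in *Atm*-WT mice 2M, 7M, 13M and 32M, and at 849.1, 552.4, 598.4 and 671.2 CPM in *Atm*-KO mice 1M, 7F, 11M and 12M. The highest *Atm*-WT value, in mouse 13M, lay below the lowest *Atm*-KO value, in mouse 7F. The means were 385 ± 66.1 and 668 ± 130 CPM (SD, n = 4 mice per genotype). The log2 fold change was 0.79 with a standard error of 0.15 and a 95% interval of 0.47 to 1.11, a 1.73-fold difference. Its adjusted p was 0.0931 by edgeR's quasi-likelihood test, which misses the threshold, and 5.8e-05 by DESeq2. The two-sided exact permutation test gave p = 0.0286, and no smaller p can arise from groups of 4 and 4. With no filter on low counts edgeR's adjusted p was 0.0043, and with 1 surrogate variable as covariate the log2 fold change was 0.60 with an edgeR adjusted p of 0.264. Leaving out each mouse in turn gave 0.66 (without *Atm*-KO mouse 1M) to 0.89.

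*Gm25129*, the snoRNA locus in an intron of *Snhg11*, was covered by 47 to 129 counts. It had 87, 47, 90 and 78 counts in *Atm*-WT mice 2M, 7M, 13M and 32M, and 129, 90, 128 and 112 in *Atm*-KO mice 1M, 7F, 11M and 12M. In CPM, its *Atm*-WT range of 0.631 to 1.15 and its *Atm*-KO range of 1.16 to 1.66 did not overlap (two-sided exact permutation test, p = 0.0286), which is the lowest p that 4 against 4 mice can give. Its log2 fold change was 0.69 (edgeR, adjusted p = 0.157), which did not pass the threshold. The 2 genotypes met closely, since the highest *Atm*-WT mouse, 2M, was just below the lowest *Atm*-KO mouse, 7F. Per 1000 counts of *Snhg11*, the locus had 2.45 ± 0.580 counts in *Atm*-WT mice against 2.30 ± 0.396 in the *Atm*-KO group (two-sided exact permutation test, p = 0.686). Counts at this locus may come from the snoRNA or from unspliced *Snhg11* RNA, which these data cannot tell apart.

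*Gas5*, which hosts C/D box snoRNAs, was the most abundant host after *Snhg11*. It was at 15.0, 12.6, 13.6 and 13.6 CPM in *Atm*-WT mice 2M, 7M, 13M and 32M and at 13.2, 10.8, 11.9 and 13.1 CPM in *Atm*-KO mice 1M, 7F, 11M and 12M. Mouse 7M of the *Atm*-WT group lay among the *Atm*-KO mice, so the genotypes overlapped. Its log2 fold change was −0.16, with a 95% interval of −0.38 to 0.06 (edgeR, adjusted p = 0.384), and it was −0.090 without *Atm*-KO mouse 7F. That interval leaves out a decrease as large as the increase measured for *Snhg11*. Its exons overlap those of *Zbtb37* on the other strand over 134 of 4228 bases, and the log2 fold change of *Zbtb37* was 0.09.

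*Zfas1*, which carries *Snord12*, had nearly equal means, 6.49 ± 0.880 CPM in *Atm*-WT mice against 6.36 ± 1.17 CPM in the *Atm*-KO group. It was at 6.69, 5.23, 6.77 and 7.27 CPM in *Atm*-WT mice 2M, 7M, 13M and 32M, and at 7.05, 5.18, 7.63 and 5.58 CPM in *Atm*-KO mice 1M, 7F, 11M and 12M. The lowest and the highest of the 8 values were both from *Atm*-KO mice. *Zfas1* thus had a log2 fold change of −0.03 (95% interval −0.38 to 0.33, edgeR, adjusted p = 0.942), which ran from −0.12 without *Atm*-WT mouse 7M to 0.076 without mouse 7F. *Znfx1*, an antiviral helicase gene on the other strand that shares 196 of its exon bases, had a log2 fold change of −0.24 (edgeR, adjusted p = 0.185).

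*Snhg1*, host to the *Snord22* cluster, was at 4.71, 3.28, 5.15 and 5.07 CPM in *Atm*-WT mice 2M, 7M, 13M and 32M, and at 4.95, 4.43, 5.24 and 5.28 CPM in *Atm*-KO mice 1M, 7F, 11M and 12M. Mouse 7M stood below the other 7 mice, and the remaining values of both genotypes were interspersed. Its log2 fold change was 0.13 (95% interval −0.24 to 0.49, edgeR, adjusted p = 0.703), and it was −0.01 without mouse 7M, 0.20 without mouse 7F and 0.21 without mouse 13M. *Slc3a2*, an amino acid transporter subunit gene on the other strand, shares 743 of the 3494 exon bases of *Snhg1*. It had a log2 fold change of −0.14 (edgeR, adjusted p = 0.249).

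*Snhg6*, host to *Snord87*, had the second highest fold change of the 9 genes. It was at 4.12, 3.75, 4.04 and 2.81 CPM in *Atm*-WT mice 2M, 7M, 13M and 32M, and at 5.35, 3.99, 3.37 and 5.65 CPM in *Atm*-KO mice 1M, 7F, 11M and 12M. Mice 1M and 12M were above every *Atm*-WT mouse, and mouse 11M was below 3 of them. The log2 fold change was 0.32 (95% interval −0.12 to 0.76, edgeR, adjusted p = 0.390), and it was 0.20 without mouse 12M, 0.21 without mouse 32M and −0.02 with 1 surrogate variable.

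*Snhg5*, host to *Snord50a* and *Snord50b*, was at 4.51, 2.97, 3.29 and 3.56 CPM in *Atm*-WT mice 2M, 7M, 13M and 32M, and at 3.93, 4.32, 3.95 and 4.65 CPM in *Atm*-KO mice 1M, 7F, 11M and 12M. Only mouse 2M of the *Atm*-WT group reached the *Atm*-KO range. *Snhg5* had a log2 fold change of 0.23 (95% interval −0.13 to 0.60, edgeR, adjusted p = 0.450). Without mouse 2M the genotypes did not overlap and the log2 fold change was 0.36 (edgeR, adjusted p = 0.299), and without mouse 7M it was 0.15 (edgeR, adjusted p = 0.655).

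*Snhg12*, host to H/ACA snoRNAs and *Snord99*, was at 3.05, 3.56, 3.12 and 3.03 CPM in *Atm*-WT mice 2M, 7M, 13M and 32M, and at 4.08, 2.92, 3.804 and 3.43 CPM in *Atm*-KO mice 1M, 7F, 11M and 12M. The *Atm*-KO mice enclosed the whole *Atm*-WT range. Its fitted log2 fold change was 0.16 (95% interval −0.19 to 0.51, edgeR, adjusted p = 0.613). It was 0.085 without mouse 1M and 0.26 without mouse 7F.

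*Snhg8*, host to *Snora24*, had the lowest fold change and the widest interval. It was at 2.98, 2.001, 2.24 and 4.12 CPM in *Atm*-WT mice 2M, 7M, 13M and 32M, and at 2.82, 1.67, 2.37 and 1.79 CPM in *Atm*-KO mice 1M, 7F, 11M and 12M. Mice 32M and 2M were above every *Atm*-KO mouse, and the other *Atm*-WT mice lay within the *Atm*-KO range. The log2 fold change was −0.39 (95% interval −0.96 to 0.18, edgeR, adjusted p = 0.420), and it was −0.16 without mouse 32M.

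*Snhg3*, host to the *Snora73* pair, was at 1.99, 2.38, 2.66 and 2.37 CPM in *Atm*-WT mice 2M, 7M, 13M and 32M, and at 2.96, 1.99, 2.42 and 2.59 CPM in *Atm*-KO mice 1M, 7F, 11M and 12M. The genotypes overlapped over most of their range, and the log2 fold change was 0.08 (95% interval −0.32 to 0.49, edgeR, adjusted p = 0.832). It was −0.010 without mouse 1M, 0.012 without mouse 2M, 0.17 without mouse 13M and 0.20 without mouse 7F. The gene shares 633 of its 986 exon bases with *Rcc1* on the same strand, the gene for the exchange factor of the Ran GTPase, and 705 of them with the lncRNA gene *Gm17300* on the other strand, so its count is uncertain. *Gm17300* had 22 to 58 counts per library and a log2 fold change of −0.70 (edgeR, adjusted p = 0.206). *Rcc1* was at 7.51 ± 0.435 CPM in *Atm*-WT mice against 7.10 ± 0.682 CPM in the *Atm*-KO group. *Snora73b* had 167, 174, 114 and 190 counts in *Atm*-WT mice 2M, 7M, 13M and 32M and 201, 133, 131 and 89 in *Atm*-KO mice 1M, 7F, 11M and 12M, and *Snora73a* and *Snora73b* are similar copies between which reads can be split. Together they had 2.08 ± 0.483 and 1.87 ± 0.508 CPM (two-sided exact permutation test, p = 0.571).

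For the 8 hosts other than *Snhg11*, counts per library ran from 121 to 1170, the log2 fold changes from −0.39 to 0.32 with a median of 0.11, and the edgeR adjusted p-values from 0.384 to 0.942. Their 95% intervals lay between −0.96 and 0.76, and all 8 included 0. The share of *Snhg11* in the counts on all 9 hosts was 87.7% to 91.7% in *Atm*-WT mice and 93.6% to 95.04% in *Atm*-KO mice, ranges that do not overlap.

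**Figure D3:**
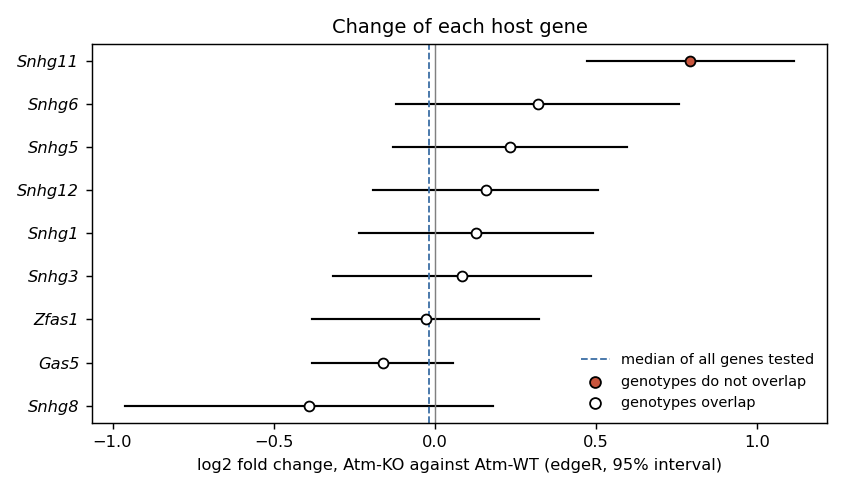
Fitted log2 fold change of *Atm*-KO against *Atm*-WT mice for each host (points) with its 95% interval (lines), from edgeR with 4 mice per genotype. The interval of *Snhg11*, 0.47 to 1.11, lies above 0, and the intervals of the other 8 hosts include 0 and the median of all genes (dashed line).

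The median fold change of the 9 hosts lay between those of other lncRNA hosts, which was higher, and of protein-coding hosts, which was lower. Differences between the classes were not tested. Of 13 other lncRNA hosts, 12 were tested, 6 were higher at an unadjusted p under 0.05 (against 11.7% of all genes and 13.5% of lncRNA genes) and 0 were lower, with a median log2 fold change of 0.40. *Snhg16* was at 2.43, 2.44, 2.48 and 1.59 CPM in *Atm*-WT mice 2M, 7M, 13M and 32M and at 4.92, 3.15, 3.88 and 5.83 CPM in *Atm*-KO mice 1M, 7F, 11M and 12M (log2 fold change 0.99, edgeR, adjusted p = 0.0938). *Snhg17* starts 13.4 kb from *Snhg11* on the other strand. It was at 6.65 ± 0.398 CPM in *Atm*-WT mice against 10.5 ± 2.47 CPM in the *Atm*-KO group, and its log2 fold change was 0.66 (edgeR, adjusted p = 0.0960), and its genotypes did not overlap either. *Rian* and *Snhg14*, imprinted genes with large snoRNA clusters that are highly expressed in neurons, had log2 fold changes of 0.33 and 0.43 (edgeR, adjusted p = 0.101 and 0.107), which were 0.13 and 0.25 with length and GC trends removed.

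Of 29 protein-coding hosts, 0 were higher and 20 were lower at an unadjusted p under 0.05, against 11.7% and 8.48% of all genes, with a median log2 fold change of −0.25. *Hspa8*, the gene of the constitutive Hsc70 chaperone, was at 1449 ± 295 CPM in *Atm*-WT mice against 840.9 ± 89.4 CPM in the *Atm*-KO group, and its log2 fold change was −0.79 (edgeR, adjusted p = 0.0931). The ribosomal protein genes *Rpl4*, *Rps12* and *Rpl10*, named with *Hspa8* for their small p and not for their size of change, had log2 fold changes of −0.42, −0.32 and −0.29 (edgeR, adjusted p = 0.105, 0.116 and 0.0963). *Hspa8* and *Rpl4* lie on chromosome 9 from 40711630 and from 64080618, and *Atm* lies between them from 53348097. Whether their place on the chromosome of *Atm* bears on their levels was not tested. Of the hosts in either class, 0 passed both thresholds in edgeR. *Hspa8*, *Snhg16* and *Snhg17*, among those named, passed them in DESeq2 and in edgeR with no filter on low counts, and *Hspa8* also without *Atm*-WT mouse 13M (−0.90, edgeR, adjusted p = 0.0169). The number of lower protein-coding hosts was 13 without *Atm*-WT mouse 32M, 13 without *Atm*-KO mouse 12M and 12 with library size alone. Over all genes tested, 1590 of 22845, 1372 of 22844 and 1046 of 22423 were lower in these settings. With 1 surrogate variable 6 protein-coding hosts were lower and 1 was higher, against 976 lower and 1295 higher of 22423 genes. With length and GC trends removed 21 were lower and 1 was higher, against 2551 and 2177 of 22423 genes. The number of higher other lncRNA hosts was 4 with 1 surrogate variable.

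**Figure D4:**
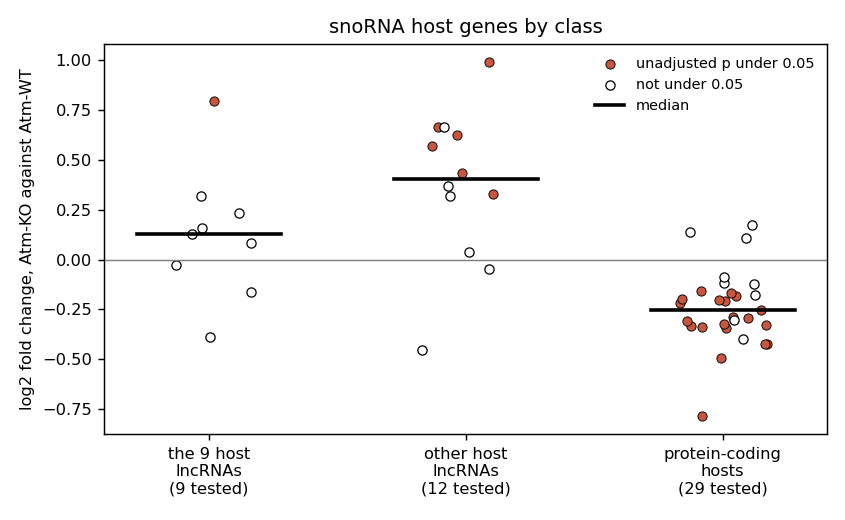
Fitted log2 fold change of *Atm*-KO against *Atm*-WT mice for each tested host gene in 3 classes, with filled points for an unadjusted p under 0.05 and a bar at the median. The medians are 0.13 for the 9 host lncRNAs, 0.40 for the 12 other host lncRNAs tested and −0.25 for the 29 protein-coding hosts.

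Genes of the proteins that act on hosts and snoRNAs were read against the same shares of all genes, 11.7% higher and 8.48% lower at an unadjusted p under 0.05. Among 8 core proteins of snoRNPs, 0 were higher and 2 were lower, namely *Snu13*, which binds box C/D RNA, and *Dkc1*, the pseudouridine synthase, with log2 fold changes of −0.22 and −0.18 (edgeR, adjusted p = 0.148 and 0.157). The number lower was 0 with library size alone and 1 without *Atm*-KO mouse 11M, and 1 was higher with 1 surrogate variable (and 1 lower) and with length and GC trends removed (and 3 lower). Over all genes, 1443 of 22782 were lower without mouse 11M, and the numbers in the other settings are as given above. Of 9 assembly factors, 0 had an unadjusted p under 0.05 in edgeR and 0 in DESeq2, with log2 fold changes from −0.19 to 0.06. In edgeR, 1 was lower without *Atm*-WT mouse 7M and 1 with length and GC trends removed. Over all genes, 1978 of 22915 and 2551 of 22423 were lower in these 2 settings. Among 14 genes of nonsense-mediated decay, 3 were higher and 1 was lower. *Rbm8a*, a subunit of the exon junction complex, was at 47.3 ± 1.54 CPM in *Atm*-WT mice against 37.8 ± 3.07 CPM in the *Atm*-KO group, and its log2 fold change was −0.32 (edgeR, adjusted p = 0.0931). The 3 higher genes were *Smg9* (0.34), *Upf3b* (0.34) and *Smg5* (0.16). Of 5 genes that control translation of TOP messengers, *Eif4ebp2*, an inhibitor of cap-dependent translation, was lower at an unadjusted p under 0.05 (−0.18, edgeR, adjusted p = 0.185), and the log2 fold changes of all 5 ran from −0.18 to 0.04. The list held 0 lower genes without any one of mice 2M, 7M, 13M, 1M, 11M and 12M, with library size alone and with length and GC trends removed.

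Of 9 RNAs that stay in the nucleus, 6 were higher at an unadjusted p under 0.05, against 11.7% of all genes, and 0 were lower. The median log2 fold change was 0.71, and the lowest of the 9 was −0.14. *Neat1*, the scaffold of paraspeckles, was at 52.4 ± 5.45 CPM in *Atm*-WT mice against 85.1 ± 8.04 CPM in the *Atm*-KO group and passed both thresholds (log2 fold change 0.70, edgeR, adjusted p = 0.0371). That call was lost under some of the alternatives given at the end. *Meg3*, *Ftx* and *Mirg* had log2 fold changes of 0.80, 0.74 and 0.98 (edgeR, adjusted p = 0.0931, 0.0942 and 0.102), and these 3 passed both thresholds in DESeq2 and in edgeR with no filter on low counts. *Meg3* and *Mirg* lie on the same strand of chromosome 12, as does *Rian*, named above. The summed level of the list was 4467 to 9160 CPM in *Atm*-WT mice against 9510 to 14790 CPM in the *Atm*-KO group. Its *Atm*-WT mean was 7624 CPM, and *Meg3*, the highest of the genes named here, had 554 CPM. Most of the sum thus came from genes of the list that are not named. Genes of the GENCODE class TEC, transcripts still to be experimentally tested, took 0.204% to 0.333% of counts in *Atm*-WT mice against 0.354% to 0.529% in the *Atm*-KO group. Both measures were lowest in mouse 32M, where *Snhg11* was lowest as well, and among the *Atm*-KO mice both were lowest in mouse 7F, as was *Snhg11*. Without mouse 32M the log2 fold change of *Snhg11* was 0.69. Over all 3339 lncRNA genes tested, 13.5% were higher and 1.62% lower at an unadjusted p under 0.05, and the fold change of *Snhg11* exceeded that of 92.5% of all genes tested. The part of nuclear RNA content in the difference of *Snhg11* cannot be told apart from that of the genotype, since both measures separated the same mice.

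**Figure D5:**
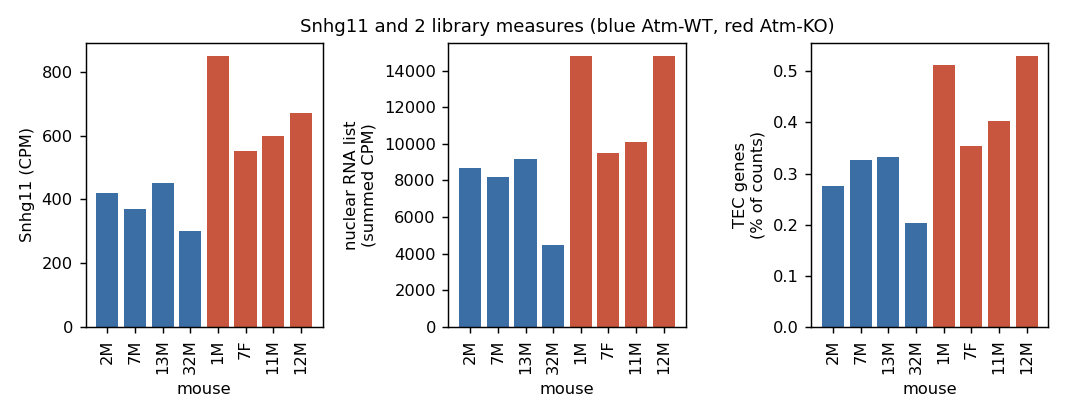
*Snhg11* in CPM, the summed CPM of 9 nuclear RNAs and the percentage of counts on TEC genes, each as a bar per mouse, *Atm*-WT in blue and *Atm*-KO in red. In all 3 panels every *Atm*-KO mouse is above every *Atm*-WT mouse, and mouse 32M is the lowest.

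Markers of cell types were read against the same share of all genes, 8.48% lower at an unadjusted p under 0.05. For 4 genes of molecular layer interneurons the summed level was 1329 to 1468 CPM in *Atm*-WT mice against 1229 to 1246 CPM in the *Atm*-KO group, with 1 gene lower at an unadjusted p under 0.05. Microglial genes were lower in 3 of 5 (72.6 to 101 CPM against 59.3 to 77.1 CPM) and oligodendrocyte genes in 2 of 5 (2878 to 3853 CPM against 1711 to 3032 CPM). By the same measure, 1 of 5 Purkinje cell genes, 2 of 6 astrocyte and Bergmann glia genes, 2 of 5 endothelial genes, 1 of 4 mural cell genes and 2 of 5 choroid plexus genes were lower. The median log2 fold change was 0.05 for the 6 granule cell genes and −0.11 for the 5 Purkinje cell genes. The 3 genes of deep nuclei or brainstem neurons had a median of −0.03 and a range of −0.34 to 1.92, and their summed level was 133.0 to 165.3 CPM against 59.6 to 171.4 CPM. The part of these cells in the levels of the hosts was not tested.

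The genes whose profile over the 8 libraries was most like the median of the 9 hosts, among 11697 genes with a mean of at least 5 CPM, were *Lyar*, a nucleolar protein gene (Pearson r = 0.96), ENSMUSG00000085037 (r = 0.95) and *2510002D24Rik* (r = 0.92). Their log2 fold changes were 0.03, 0.03 and 0.19. A search for *Snhg11* alone, added after its values were seen, gave *Recql5*, a DNA helicase gene (r = 0.996), *Odf2l* (r = 0.98) and *Gm38077* (r = 0.98), with log2 fold changes of 0.40, 0.31 and 0.96. These r describe 8 libraries that share a genotype split and normalisation, and were chosen as the highest of all genes.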

How the data were processed

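The authors aligned the reads with STAR to GRCm39 (GENCODE release 28, as the paper names it), ran featureCounts per gene and deposited the raw counts, the only values used. Its strand, pair and overlap settings are not given in the sources used here. Between 67.3% and 73.3% of counts from 1 to 50 were even, so many counts may hold both mates of a fragment. Low counts, such as those of *Gm25129*, may then stand for fewer fragments than their number. Identifiers were matched without version to GENCODE vM39 (56017 of 56691), which gave symbols, exons and sequences. Genes kept by filterByExpr were normalised by TMM and compared with edgeR 4.0.16 (glmQLFit, glmQLFTest, no covariate) in R 4.3.3. CPM used TMM-scaled library sizes, log2 CPM a prior count of 2, and single values two-sided exact permutation tests. Hosts, lists and tests were chosen with earlier results of these data known. Named were all 9 hosts, *Atm*, up to 4 genes per list with the smallest unadjusted p, and the 3 genes most alike in profile. Alternatives were DESeq2 1.42.0, voom of limma 3.58.1, RLE factors, library size alone, no filter, at least 10 counts per library, mitochondrial genes left out, halved counts, 1 surrogate variable (sva 3.50.0), length and GC trends removed, and each mouse left out.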

Additional observations from a re-analysis of the deposited data

Results flagged for a closer look

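In 84 sets of 4 mice, 7 held a mouse far from the other 3 by Dixon's criterion at its 95% level, where about 4.2 would be flagged by chance. The median of the 9 hosts, as log2 CPM relative to the *Atm*-WT mean, was −0.13 in *Atm*-KO mouse 7F and 0.15 to 0.16 in the other *Atm*-KO mice. *Snhg14* was also low in mouse 7F, at 389.9 CPM against 437.6 to 442.3 CPM. *Atm*-WT mouse 32M was low for *Snhg16*, at 1.59 CPM against 2.43 to 2.48 CPM, and for *Ftx*, at 21.2 CPM against 35.6 to 38.0 CPM. *Atm*-KO mouse 12M was low for *Rpl10*, at 103.6 CPM against 116.3 to 118.4 CPM, and for *Rps12*, at 32.9 CPM against 38.0 to 38.8 CPM. The same mouse had the fewest counts, 65967130 against 76598492 to 78431478 in the other *Atm*-KO mice.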

How the results depend on the processing

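*Snhg11* kept a positive log2 fold change under all 18 alternatives (0.60 to 0.89), with an adjusted p under the threshold only in DESeq2 and without a filter on low counts. These were also the alternatives in which 1 host passed both thresholds, in place of 0. Genes past both thresholds numbered 4, and 994 in DESeq2, 435 with no filter on low counts, 2 with at least 10 counts in every library and 8 with length and GC trends removed. Leaving out a mouse gave 1 to 27, the highest without *Atm*-WT mouse 13M. Genes with an unadjusted p under 0.05 numbered 4524, and 2271 with 1 surrogate variable. The median of the 9 hosts was −0.0073 with length and GC trends removed and 0.09 to 0.20 with a mouse left out. Hosts whose genotypes do not overlap numbered 1 to 2 with a mouse left out. *Snhg5* joined without *Atm*-WT mouse 2M and *Gas5* without *Atm*-WT mouse 7M, in each case the mouse that had made the ranges overlap. Ranges separate more easily with fewer mice, and the share of all genes in these settings is not given here. Hosts with an unadjusted p under 0.05 numbered 1 to 2 with a mouse left out. *Snhg6* joined, as a higher gene, without *Atm*-KO mouse 11M, where 2740 of all 22782 genes tested were higher and 1443 lower. With 1 surrogate variable the sign turned for *Zfas1* (0.086), *Snhg3* (−0.014), *Snhg6* (−0.017) and *Mtor* (−0.027). With length and GC trends removed it turned for *Snhg1* (−0.0073), *Snhg3* (−0.15) and *Ruvbl2* (0.074), and with library size alone for *Zfas1* (0.019). With a mouse left out, *Zfas1* ran from −0.12 to 0.076, *Snhg3* from −0.010 to 0.20, *Snhg1* from −0.0059 to 0.21 and *Mtor* from −0.051 to 0.048. *Neat1* lost its call in limma voom, with 1 surrogate variable and without mice 11M, 1M, 2M or 7M. In these settings its log2 fold change was 0.59 (1 surrogate variable) to 0.75 (without mouse 11M), beside 0.70 in the main fit. The cause of these shifts was not tested. No paired analysis was possible because the labels pair no mice. Halved counts, which lowered the depth of every gene, changed no count of hosts called.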
